A study of Mus musculus with 2 samples.

Results

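The genes described are 10 members of the Notch pathway, namely the ligands Dll1, Dll3, Dll4 and Jag1, the receptors Notch1, Notch2 and Notch3, and the basic helix-loop-helix genes Hes1, Hes5 and Hes6. They were taken by symbol from the 31053 genes of the feature list, where each symbol had 1 row, and all 10 had UMIs in both libraries. Expression was measured by droplet single-cell RNA sequencing of mouse eye cups at postnatal day 0, in 2 libraries of 3 pooled eye cups each. The control library came from Myrf fl/fl mice and the mutant library from Rx>cre Myrf fl/fl mice, so that both genotypes carried the floxed allele of Myrf, a membrane-bound transcription factor. Cre was driven by Rx, which is active in the early eye field that gives rise to the retina and the retinal pigment epithelium (RPE). Since the eye cups were pooled and each genotype had 1 library, no difference between genotypes has a replicate check, and the intervals below cover counting error only. The question addressed is where each Notch gene was detected in the newborn eye cup, and how its level compared between the control and the mutant library.

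Notch signaling passes between touching cells. A ligand of the Delta (Dll) or Jagged (Jag) family on one cell binds a Notch receptor on its neighbor, which is then cut by the γ-secretase complex. The freed intracellular domain joins the DNA-binding protein Rbpj and switches on Hes and Hey genes, whose products are transcriptional repressors. In the developing retina, Hes1 and Hes5 keep progenitors from becoming neurons, whereas cells that enter neurogenesis raise Delta ligands. Hes6 is a divergent family member that counteracts Hes1. Dll3 differs from the other ligands in that it acts mainly within the cell that makes it and does not activate receptors on a neighbor. In vessels, Dll4 marks endothelial tip cells and arteries, Jag1 is made by endothelial and smooth muscle cells, and Notch3 is the receptor of mural cells.

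On GRCm38 (GENCODE vM21) the ligand Dll1 (ENSMUSG00000014773) lies at chr17:15367354-15376872, Dll3 (ENSMUSG00000003436) at chr7:28293553-28302238, Dll4 (ENSMUSG00000027314) at chr2:119325784-119335962 and Jag1 (ENSMUSG00000027276) at chr2:137081456-137116644. The receptor Notch1 (ENSMUSG00000026923) lies at chr2:26457903-26516663, Notch2 (ENSMUSG00000027878) at chr3:98013527-98150361 and Notch3 (ENSMUSG00000038146) at chr17:32120820-32166852. Hes1 (ENSMUSG00000022528) lies at chr16:30064384-30067796, Hes5 (ENSMUSG00000048001) at chr4:154960923-154962371 and Hes6 (ENSMUSG00000067071) at chr1:91411483-91414038. None of them overlaps another gene on the same strand.

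Promoter sequences are shown for 4 genes that hold the letters of Rbpj or of an E-box and that differed between retinal progenitors and neurogenic cells, a choice made after their values were seen. They come from RefSeq on GRCm38.p6, cover 250 bases before to 50 after the start of transcription, and run 5′ to 3′ along the transcribed strand. Capitals mark GTGGGAA or its reverse complement TTCCCAC, the letters bound by Rbpj, and the E-box CAGCTG, which reads the same on both strands and is a site type of proneural factors. The promoter of Hes5 lies at chr4:154960673-154960972 on the plus strand.
Hes5: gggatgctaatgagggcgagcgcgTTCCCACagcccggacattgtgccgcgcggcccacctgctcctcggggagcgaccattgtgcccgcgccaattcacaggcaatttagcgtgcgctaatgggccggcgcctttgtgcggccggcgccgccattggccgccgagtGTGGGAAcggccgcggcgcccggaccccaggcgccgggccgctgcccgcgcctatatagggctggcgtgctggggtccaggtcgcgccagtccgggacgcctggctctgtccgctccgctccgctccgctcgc
The Dll1 promoter with a match lies at chr17:15376883-15377182 on the minus strand.
Dll1: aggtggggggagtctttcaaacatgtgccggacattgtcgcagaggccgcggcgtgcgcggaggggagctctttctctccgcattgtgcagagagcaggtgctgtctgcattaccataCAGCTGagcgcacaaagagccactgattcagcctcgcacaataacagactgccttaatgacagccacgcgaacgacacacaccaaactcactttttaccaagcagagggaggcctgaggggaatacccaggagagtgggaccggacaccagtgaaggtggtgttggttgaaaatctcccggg
The Dll3 promoter lies at chr7:28301736-28302035 on the minus strand.
Dll3: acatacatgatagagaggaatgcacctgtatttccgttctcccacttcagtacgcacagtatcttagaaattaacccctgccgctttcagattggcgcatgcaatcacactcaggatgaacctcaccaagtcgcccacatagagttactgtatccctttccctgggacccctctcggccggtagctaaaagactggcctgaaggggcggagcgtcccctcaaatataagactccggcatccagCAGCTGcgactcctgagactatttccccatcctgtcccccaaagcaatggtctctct
The Hes6 promoter that spans the annotated 5′ end of the gene lies at chr1:91413989-91414288 on the minus strand.
Hes6: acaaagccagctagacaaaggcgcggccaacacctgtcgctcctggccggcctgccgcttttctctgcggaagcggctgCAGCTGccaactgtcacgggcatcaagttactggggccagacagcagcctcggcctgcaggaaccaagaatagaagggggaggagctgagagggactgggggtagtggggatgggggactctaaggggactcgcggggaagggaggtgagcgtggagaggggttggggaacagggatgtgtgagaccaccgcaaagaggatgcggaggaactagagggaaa

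Of the 10 genes, 9 had a promoter entry. Hes5 was the only 1 of these 9 with the Rbpj letters, which it held on both strands, as TTCCCAC beginning 226 bases and as GTGGGAA beginning 83 bases before the start of transcription. These letters occurred in 2097 of all 32851 promoter entries (6.38%). The E-box CAGCTG occurred in 4 of the 9 genes, Dll1, Dll3, Jag1 and Hes6, and in 16.3% of all entries, which is a share of entries and not of genes, since a gene can have several (Dll1 and Hes6 have 2 each). It began 132 bases before the start in Dll1, 7 bases before it in Dll3, and 171 bases before it in the Hes6 entry shown. A match is a description of letters in this window and was not tested for binding.

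After filters, 12419 control and 10797 mutant cells were analyzed, with medians of 4270 and 4814 unique molecular identifiers (UMIs, each counting 1 captured mRNA molecule). Clustering gave 37 clusters, of which 26 were named as 16 classes from marker genes, and 11 stayed unnamed with 38.2% of control and 30.8% of mutant cells. No Notch gene was used to cluster or name cells. Levels were ranked over the 22 groups (12 named classes and 10 unnamed clusters) with at least 50 cells in each library, so "highest" below leaves out smaller groups such as the 2 mutant lens-like cells, whose Hes5 level was 3689 CPM (2451 to 5332). Retinal progenitor-like cells numbered 3135 in control and 3856 in mutant, neurogenic-like cells 942 and 1013, RPE-like cells 529 and 196, endothelial-like cells 414 and 170, mural-like cells 87 and 67, and mesenchyme-like cells 453 and 368. The RPE-like cluster also passed for the ciliary margin list. Myrf itself stood at 225 CPM (UMIs of the gene in 1000000 UMIs of the class; 95% Poisson interval, 209 to 241) in control RPE-like cells and at 27.3 (20.9 to 34.9) in mutant ones, 8.24-fold lower. The libraries differed in other ways too. Lens-like cells numbered 265 in control and 2 in mutant. Cells with Xist and without Y-linked UMIs made up 7.16% of control and 70.4% of mutant cells, so that the sex of the pooled pups and the genotype cannot be told apart. The libraries shared 45 barcodes among the cells kept. Red blood-like cells, which should lack Notch ligands and retinal Hes genes, served as a rough measure of free RNA. The 7 red blood markers summed to 851497 and 830195 CPM there. The share of free RNA can differ between classes and was not measured in the others. Hes5, for one, was 49.1 and 54.0 CPM in mesenchyme-like against 146 and 173 CPM in red blood-like cells. Statements about the red blood level below compare with this class only.

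The 3 Delta ligands were low in retinal progenitors and high in neurogenic cells. Dll1, the ligand that signals from newly committed cells to their neighbors, stood at 26.2 CPM (23.8 to 28.8) in control and 34.2 (31.7 to 36.8) in mutant progenitor-like cells. In neurogenic-like cells it reached 253 CPM (239 to 268) in control and 268 (254 to 282) in mutant. The level was thus 9.67-fold higher in the neurogenic class in control and 7.84-fold higher in mutant. Dll3, the ligand that acts within the cell, went from 12.7 to 385 CPM in control and from 14.7 to 379 CPM in mutant. Dll4 went from 2.95 to 183 CPM in control and from 2.42 to 164 CPM in mutant. Red blood-like cells gave 17.1 and 7.82 CPM of Dll3 and 4.29 and 4.47 CPM of Dll4, so the progenitor level of Dll4 in both libraries and of Dll3 in control was not above the free RNA, and no fold is given for these genes. The counting intervals of the classes did not overlap in any of the 3 genes, in either library. Jag1, in contrast, was low in both classes, with 1.85 and 2.60 CPM in control progenitor-like and neurogenic-like cells and 1.64 and 2.26 CPM in mutant.

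Dll1 and Dll4 were highest in the neurogenic class, and Dll3 in an unnamed cluster. Dll1 was 166 CPM (152 to 182) in control and 225 (207 to 243) in mutant in an unnamed cluster led by Miat, Fam183b and Ass1, called the Miat cluster here. It was 90.9 and 106 CPM in another unnamed cluster with Cdc20, Rsph1 and Ccnb2 among its leading genes, the Rsph1 cluster. Dll3 was highest in a cluster led by Neurod4 and Neurod1, transcription factors of early photoreceptor and bipolar precursors, at 445 CPM (411 to 479.9) in control and 443 (411 to 477) in mutant. This stood apart from the neurogenic class in both libraries, and the levels of Dll1 and Dll4 in the neurogenic class stood apart from those in the next group. In the Neurod1 cluster Dll4 was 96.0 CPM in control and 71.7 in mutant. In the photoreceptor class Dll1 was 13.3 and 20.7 CPM, Dll3 35.4 and 42.2 CPM, and Dll4 3.98 and 5.53 CPM. Only a part of the neurogenic cells gave a Delta UMI at equal depth. With each cell thinned to 1000 UMIs, 223 of 939 control cells had a Dll1 UMI (23.7%, exact binomial interval 21.1 to 26.6), as did 233 of 1009 mutant cells (23.1%, 20.5 to 25.8). For Dll3 the shares were 33.7% and 30.7%, and for Dll4 16.2% and 14.7%. Red blood-like cells gave a Dll1 UMI in 2.65% of 113 thinned control cells. In mutant they gave 0 in 82 thinned cells, and the upper limit of that share is 3.66%.

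**Figure D1:**
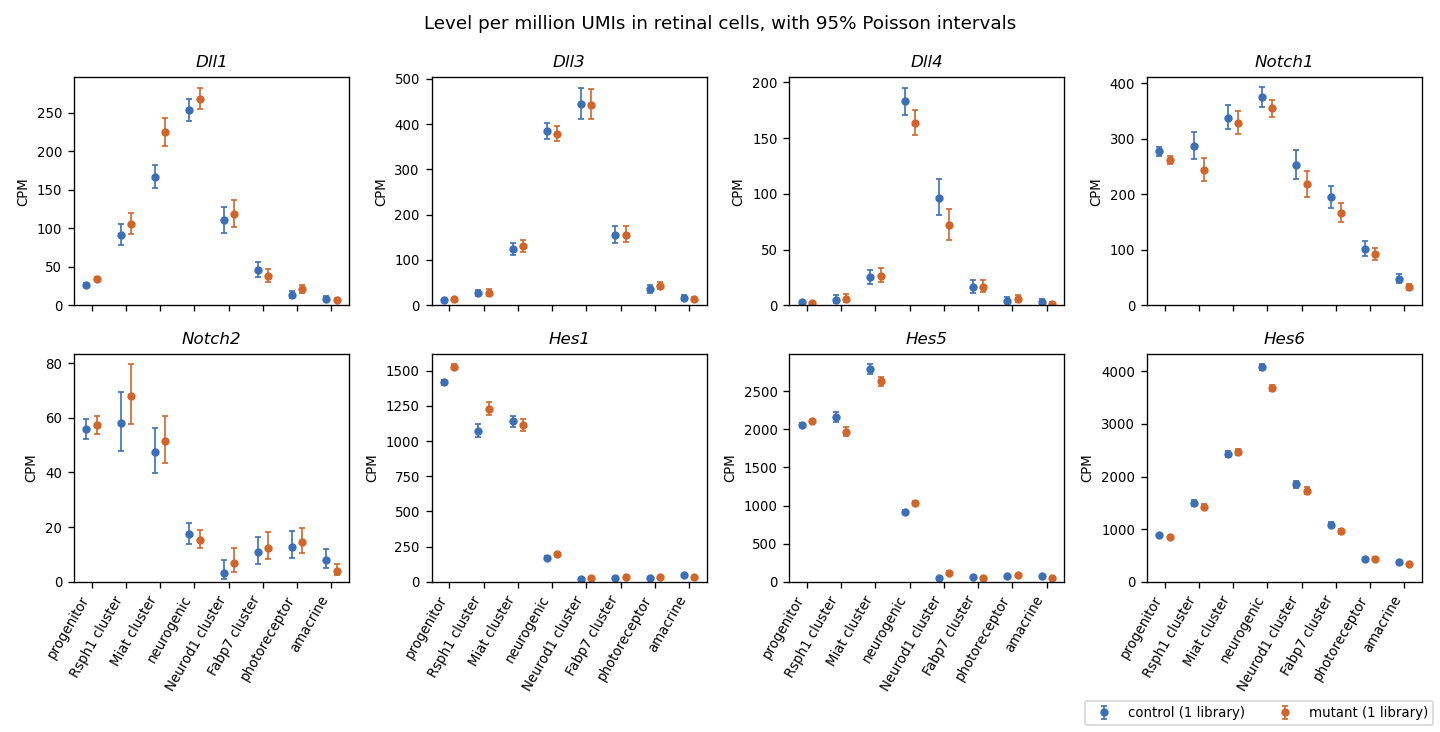
Level of 8 Notch genes (y axis, CPM) in 8 groups of retinal cells (x axis) in the control (blue) and mutant (orange) library, 1 point per library with its 95% Poisson interval. Dll1, Dll3, Dll4 and Hes6 were lower in progenitor-like cells than in neurogenic-like cells and the Neurod1 cluster, in both libraries. Hes1, Hes5 and Notch2 were higher in progenitor-like cells and the Rsph1 and Miat clusters than in all other groups shown, in both libraries.

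The receptors divided between the classes. Notch1, the main receptor of retinal progenitors, was present throughout the lineage, at 278 CPM (269.9 to 286) in control and 262 (255 to 269) in mutant progenitor-like cells. It was 375 CPM (358 to 393) and 355 (339 to 371) in neurogenic-like cells, 1.35-fold higher in each library and below the 1.5-fold limit used here. It was lower in 2 other retinal classes, with 102 and 92.6 CPM in photoreceptor-like and 48.0 and 32.3 CPM in amacrine-like cells. Notch2 showed the other direction, with 55.7 CPM (52.1 to 59.4) in control and 57.4 (54.1 to 60.7) in mutant progenitor-like cells against 17.4 and 15.4 CPM in neurogenic-like cells, 3.21-fold and 3.72-fold lower. Notch3 was 12.1 and 10.3 CPM in progenitor-like cells and 1.95 and 1.69 CPM in neurogenic-like cells, the latter from 9 UMIs in each library.

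Hes1 and Hes5 were lower and Hes6 was higher in neurogenic than in progenitor cells. Hes1 stood at 1418 CPM (1400.0 to 1437) in control and 1527 (1509.8 to 1544) in mutant progenitor-like cells, and at 170.4 (159 to 183) and 194 (182 to 206) in neurogenic-like cells. It was thus 8.32-fold lower in the neurogenic class in control and 7.87-fold lower in mutant. Hes5 declined less, from 2060.0 to 914 CPM in control, 2.25-fold, and from 2105 to 1037 CPM in mutant, 2.03-fold. Hes6 showed the opposite pattern, from 889 to 4086 CPM in control, 4.59-fold higher, and from 850.4 to 3682 CPM in mutant, 4.33-fold higher. In thinned cells a Hes6 UMI was found in 94.8% of control and 95.1% of mutant neurogenic-like cells, against 48.1% and 48.2% of progenitor-like cells. Hes1 went from 65.9% and 69.5% of progenitor-like cells to 10.5% and 12.7% of neurogenic-like cells. In red blood-like cells the shares were 19.5% and 13.4% for Hes6 and 14.2% and 12.2% for Hes1, so the share of neurogenic cells with a Hes1 UMI had an interval that overlapped that measure of free RNA in both libraries, although its CPM was above the 85.7 and 136 CPM of red blood-like cells, and no level is read from that share. The median depths before thinning were 3579 and 11838 UMIs in red blood-like and 4507 and 4933 in neurogenic-like cells.

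Genes of both directions were high in the Miat cluster. Hes5 had its highest level there, 2789 CPM (2728 to 2851) in control and 2630.5 (2571 to 2691) in mutant, apart from the next of the ranked groups in each library. Hes1 was 1139 and 1113 CPM there, Hes6 2427 and 2462 CPM and Dll1 166 and 225 CPM. In progenitor-like cells Hes1 was 1418 and 1527 CPM. Hes1 was thus somewhat lower and Hes5 higher in the Miat cluster, where Dll1 and Hes6 stood well above the progenitor level. No order in time was computed for these groups. In the Neurod1 cluster, Hes1 was 19.6 and 26.6 CPM and Hes6 1853 and 1734 CPM.

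Counted over all 10 genes, 4 (Dll1, Dll3, Dll4 and Hes6) were at least 1.5-fold higher in neurogenic-like than in progenitor-like cells in both libraries, and 4 (Notch2, Notch3, Hes1 and Hes5) at least 1.5-fold lower. Of 12635 genes with 20 or more UMIs in these 2 classes of each library, 9.29% were higher and 14.7% lower by the same rule. The remaining 2 genes, Jag1 and Notch1, passed in neither direction. The median log2 ratio over all genes was -0.05 in each library. With cells limited to 2000 UMIs, 2 genes were higher and 1 lower, and Hes5 in control had a log2 ratio of 0.32 in place of -1.17. The share of all genes under this limit is not given.

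Of 44 other genes of the pathway, 41 reached the UMI minimum, 7 were higher and 7 lower in the neurogenic class in both libraries (9.29% and 14.7% of all genes), and those named here were named after their values were seen. Among genes that act on the receptor, Mfng, a Fringe enzyme that adds sugars to Notch, was 26.4 and 26.7 CPM in progenitor-like cells and 297 and 252 CPM in neurogenic-like cells. The related Lfng moved the other way, from 76.4 and 72.6 CPM to 35.2 and 37.8 CPM. Rbpj, the DNA-binding partner of cleaved Notch, was 77.3 and 82.5 CPM in progenitor-like and 219 and 235 CPM in neurogenic-like cells. The ligand-like Dner, the ubiquitin ligase Neurl1a, the Numb relative Numbl and Hes2 were also higher in the neurogenic class. Hes2 rested on 0.0615 CPM in control progenitor-like cells against 48.6 CPM in neurogenic-like cells. Among the lower genes, Nrarp, a feedback inhibitor of the pathway, went from 202 and 196 CPM to 84.2 and 85.0 CPM, and Dtx4 from 154 and 144 CPM to 30.4 and 29.7 CPM, with Hey1, Hey2, Heyl and Dtx1 in the same direction. None of the 8 genes of the proteases that cut the receptor passed in either direction. Psenen, a γ-secretase subunit, was 229 and 214 CPM in progenitor-like and 214 and 202 CPM in neurogenic-like cells, and Aph1a was 65.6 and 70.1 CPM against 52.7 and 51.5 CPM.

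Within the progenitor class, the 4 clusters were led by different genes of the cell cycle, 3 of them by genes of DNA replication or histones and 1 by mitotic genes, and the Notch genes, which were not used to form the clusters, differed between them. Hes5 was highest in the cluster led by Ung with Mcm genes, which license DNA replication, at 2592 CPM (2549.7 to 2635) in control and 2517 (2482 to 2552) in mutant. It was lowest in the cluster led by the mitotic genes Ube2c and Ccnb1, at 1644 CPM (1609 to 1680.1) and 1703 (1670.0 to 1738), although in mutant this interval overlapped that of the Ccne2 cluster. Hes6 ran the other way between these clusters, with 825 and 811 CPM in the Ung cluster and 1109 and 1034 CPM in the mitotic one. Hes1 was highest in the cluster led by histone genes, at 1615 and 1696 CPM. Dll1 was lowest in the cluster led by Ccne2, at 10.7 CPM (5.68 to 18.2) and 9.23 (4.61 to 16.5), against 34.4 and 43.0 CPM in the Ung cluster. The low values rest on 13 and 11 UMIs and are near the 7.50 and 10.1 CPM of red blood-like cells. In control the interval overlapped that of the histone cluster (16.0 CPM, 12.5 to 20.2). The neurogenic class held 2 clusters that differed in cycle genes. The summed CPM of 18 genes of G2 and M phase was 375 and 468 in the cluster led by Atoh7, a factor required for retinal ganglion cells, and 8283 and 7948 in that led by Olig2, Neurog2, Sstr2 and Foxn4. Dll3 was higher in the Atoh7 cluster, at 481 and 509 CPM against 279.5 and 251 CPM. Notch1 was lower there, at 338 and 323 CPM against 415 and 385 CPM, and Hes6 likewise, at 3622 and 3317 CPM against 4593 and 4041 CPM. Each of these orders was the same in both libraries.

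**Figure D2:**
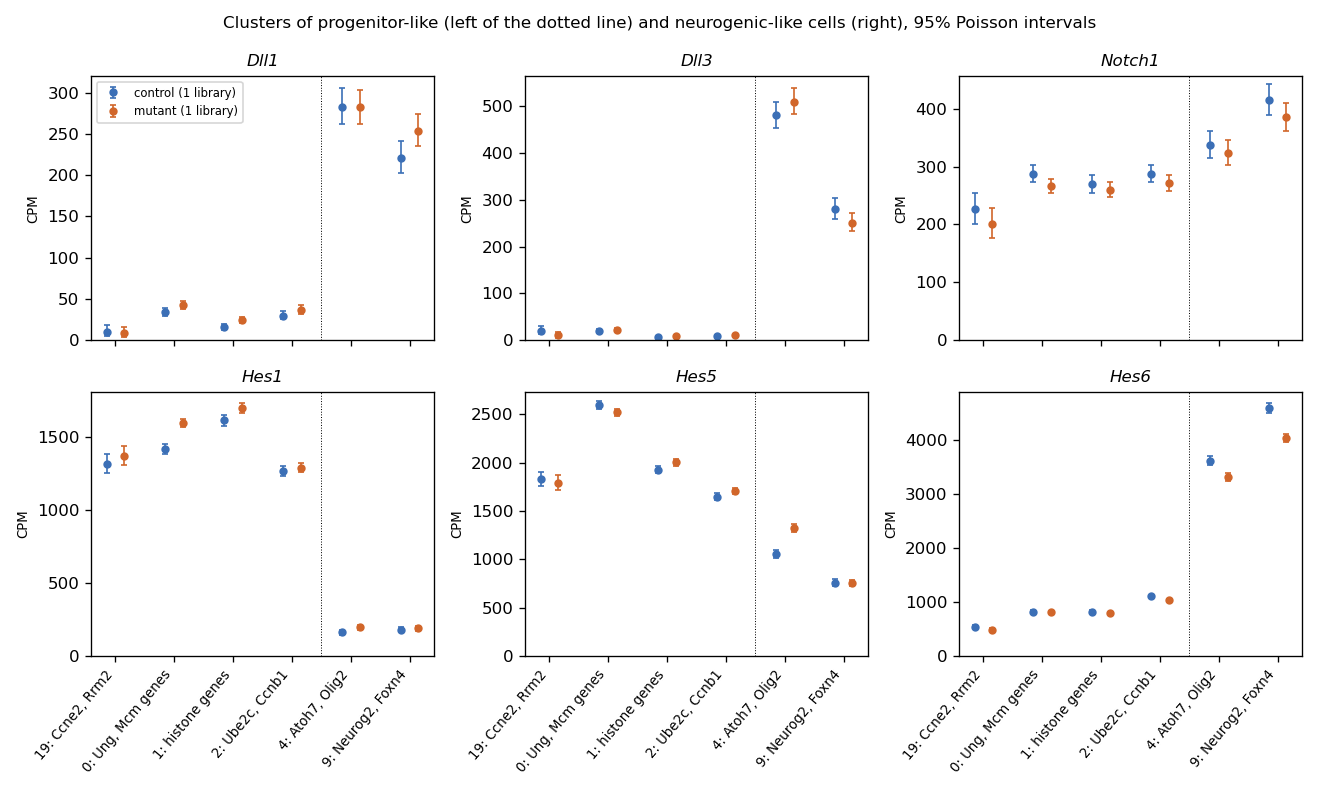
Level of 6 Notch genes (y axis, CPM) in the 4 clusters of progenitor-like cells and the 2 clusters of neurogenic-like cells, named by cluster number and leading genes (x axis), in control (blue) and mutant (orange), with 95% Poisson intervals. Hes5 was highest in the Ung cluster and Dll1 lowest in the Ccne2 cluster of the progenitor class, and Dll3 was higher and Hes6 lower in the Atoh7 than in the other neurogenic cluster. Dll1 in the Ccne2 cluster rests on 13 and 11 UMIs, and in control its interval overlapped that of the histone cluster.

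Detection in the same cell was read from cells thinned to 1000 UMIs. Taking progenitor-like and neurogenic-like cells together, 90.4% of control cells with a Dll1 UMI also had Hes6 (86.4 to 93.5), against 56.4% of those without (54.8 to 58.0). Hes1 went the other way, at 24.0% of cells with Dll1 and 55.4% of those without. In mutant the shares were 88.8% and 55.4% for Hes6 and 31.1% and 59.9% for Hes1. The Miat cluster was not part of this set. There, 12.1% of control and 17.5% of mutant thinned cells had a Dll1 UMI, and 58.1% and 55.6% a Hes1 UMI. The pooled shares mix 2 classes, and Dll1 and Hes6 were higher and Hes1 lower in neurogenic-like cells. The part of the classes in the pooled shares was not tested. Within the neurogenic class, Hes6 was found in 97.3% of control cells with Dll1 and 94.0% of those without. In mutant it was in 96.6% and 94.7%, with overlapping intervals in each library. Within the neurogenic class, Hes5 was found in 38.1% (31.7 to 44.8) of cells with a Dll1 UMI and 32.0% (28.6 to 35.5) of those without in control, and in 42.1% and 35.4% in mutant, with overlapping intervals in each library. No difference in Hes5 by Dll1 was detectable at this depth. Within the progenitor class, 2.20% (1.72 to 2.78) of thinned control and 3.45% (2.90 to 4.07) of thinned mutant cells had a Dll1 UMI. The control share was not above the 2.65% of control red blood-like cells, and the mutant one lay around the 3.66% that the count of 0 in mutant red blood-like cells allows. In control, Hes6 was in 68.1% (55.8 to 78.8) of progenitor-like cells with Dll1 and 47.6% (45.8 to 49.4) of those without. In mutant it was in 75.2% (67.0 to 82.3) and 47.2% (45.6 to 48.8). With Dll1 detection so near the red blood share, no conclusion is drawn from these values.

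Notch2, Notch3 and Jag1 had their highest levels outside the neural retina. Notch3 was highest in mural-like cells, the pericytes and smooth muscle of vessel walls, at 442 CPM (398 to 490.1) in control and 401 (354 to 452) in mutant. The named class that ranked next, muscle-like cells, stood at 93.7 and 78.4 CPM and included a shallow cluster of 43 cells with a median of 768 UMIs. Notch2 was highest in RPE-like cells, at 377 CPM (356 to 399) in control and 325 (302 to 349) in mutant. It was 123 and 127 CPM in mesenchyme-like cells. In endothelial-like cells Notch1 was 198 CPM (183 to 214) and 182 (163 to 202), against 35.4 and 31.3 CPM in red blood-like cells, and Notch3 was 2.11 and 0.528 CPM. Jag1 was highest in mural-like cells, at 259.6 CPM (226 to 297) and 321 (279 to 368), and there 25.3% and 24.2% of thinned cells had a UMI. Surface epithelium-like cells followed with 95.3 and 84.7 CPM. Of the endothelial, mural, RPE and mesenchyme classes, Dll4 was highest in endothelial-like cells, at 58.9 CPM (50.9 to 67.8) and 55.4 (45.3 to 67.1). It was 2.72 and 0.433 CPM in RPE-like and 1.13 and 0.606 CPM in mesenchyme-like cells, and mural-like cells had 0 UMIs in both libraries, which allows up to 3.67 and 4.59 CPM. Red blood-like cells gave 4.29 and 4.47 CPM of Dll4 and 0 of Jag1.

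Hes1 was detected well above the red blood level in vessels, at 515 CPM (491 to 539.9) and 554 (521 to 588) in endothelial-like cells and at 696 (639.5 to 755) and 471 (419.8 to 527) in mural-like cells. In red blood-like cells it was 85.7 and 136 CPM. In vessels, Hes5 was near or below the free RNA, and Hes6 was above it by CPM in control endothelial-like cells alone. Hes5 was 147 and 89.2 CPM in endothelial-like, 58.8 and 112 CPM in mural-like, 76.2 and 79.6 CPM in RPE-like and 49.1 and 54.0 CPM in mesenchyme-like cells, against 146 and 173 CPM in red blood-like cells. Hes6 was 137 and 143 CPM in red blood-like cells, against 198 and 116 CPM in endothelial-like and 46.5 and 90.2 CPM in mural-like cells, and the control endothelial interval (184 to 214) lay above that of red blood-like cells (114 to 163). A Hes6 UMI was found in 19.8% and 12.4% of thinned endothelial-like and in 19.5% and 13.4% of thinned red blood-like cells. For Hes5 the shares were 14.4% and 6.83% in endothelial-like and 17.7% and 12.2% in red blood-like cells. No expression of Hes5 or Hes6 in vessels is read from these shares.

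**Figure D3:**
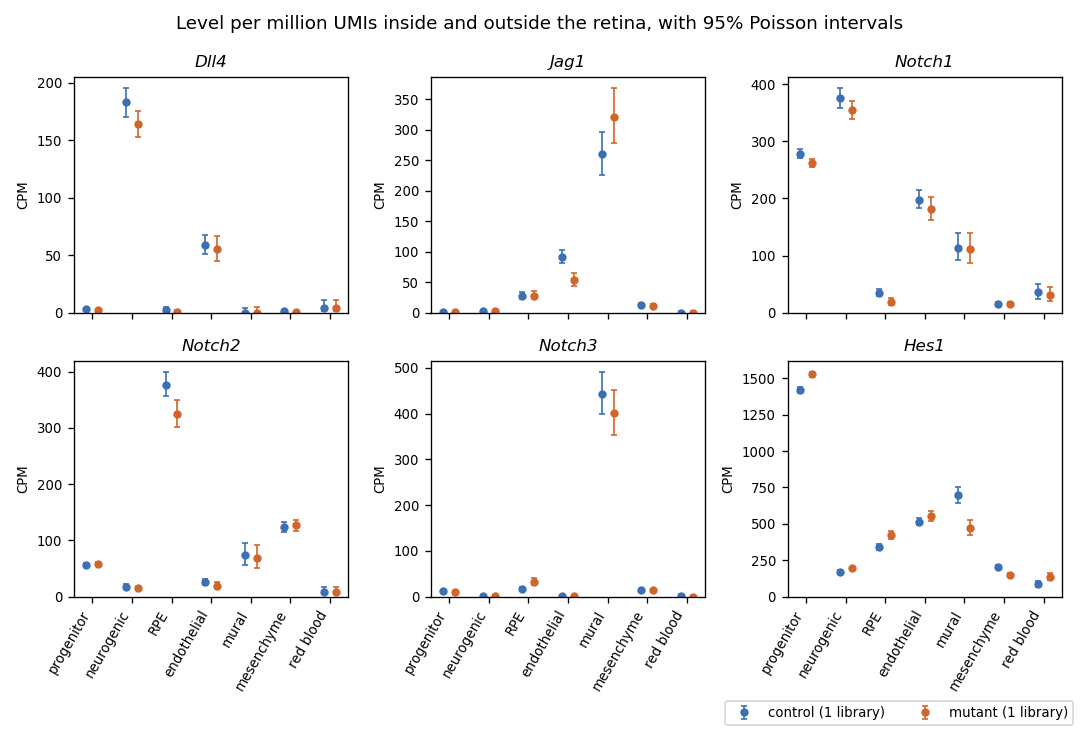
Level of 6 Notch genes (y axis, CPM) in 7 classes (x axis) in the control (blue) and mutant (orange) library, with 95% Poisson intervals, red blood-like cells showing the free RNA. Jag1 and Notch3 were highest in mural-like, Notch2 in RPE-like, Notch1 and Dll4 in neurogenic-like and Hes1 in progenitor-like cells.

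Endothelial-like cells were divided by 2 or more UMIs of tip cell genes (such as Apln and Esm1) or of arterial genes (such as Gja4 and Gja5). Cells past the tip gate made up 18.8% of 414 control and 37.6% of 170 mutant endothelial-like cells, at median depths of 4809 and 8997 UMIs in the class. The gate counts UMIs without regard to depth, and the part of depth in these shares was not tested. Dll4 was 94.6 CPM (78.1 to 114) in control and 75.6 (59.6 to 94.7) in mutant cells past the tip gate, against 38.2 (30.3 to 47.5) and 32.6 (21.8 to 46.8) in the rest. The order was the same in both libraries and the intervals did not overlap. Median depths were 12552 and 11390 UMIs past the gate and 3127 and 7749 in the rest. Jag1 was 94.6 CPM past the tip gate and 90.2 in the rest in control, and 56.7 and 49.4 CPM in mutant, with overlapping intervals. By arterial genes, Jag1 was 109 CPM (95.2 to 125) in control cells past the arterial gate and 66.1 (53.1 to 81.4) in other cells, and 57.5 and 47.1 CPM in mutant, where the intervals overlapped. Dll4 was 73.8 CPM (62.3 to 86.8) past the arterial gate and 37.2 (27.6 to 49.0) in other cells in control. In mutant the order was the opposite, at 52.2 CPM (39.7 to 67.3) and 60.2 (44.1 to 80.3), with overlapping intervals. Median depths were 11719 and 13139 UMIs past the arterial gate and 2475 and 7027 in other cells.

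Between genotypes, none of the 10 Notch genes passed 1.5-fold in progenitor-like cells, while 9.18% of 13570 genes did, and the median log2 ratio of mutant over control was -0.01 for the 10 and 0.05 for all genes. In neurogenic-like cells none of the 9 genes with 20 or more UMIs passed it, while 9.08% of 11572 genes did. Dll1 had the largest ratio of these in progenitor-like cells, 1.30-fold higher in mutant (log2 ratio 0.38, exact interval 0.21 to 0.56). It was also 1.35-fold higher in the Miat cluster (log2 ratio 0.43, 0.26 to 0.61), with 12.1% (9.88 to 14.7) of thinned control and 17.5% (14.7 to 20.6) of mutant cells having a UMI. The summed level of 8 neurogenic markers was higher in mutant in the same cells, at 589 CPM in control and 729.9 in mutant progenitor-like cells and at 1413 and 1866 CPM in the Miat cluster, and its part in the Dll1 ratios was not tested. With only cells that held Xist but no Y-linked UMI kept, which few control cells did, 3 genes passed in progenitor-like and 3 in neurogenic-like cells. The share of all genes under this setting is not given. In neurogenic-like cells the log2 ratio of Dll1 was 0.08 (-0.03 to 0.19). The Hes genes differed less between libraries in progenitor-like cells, with log2 ratios of 0.11 for Hes1, 0.03 for Hes5 and -0.06 for Hes6. In neurogenic-like cells they were 0.19, 0.18 and -0.15. Notch1 had a log2 ratio of -0.08 in each class. With 1 library per genotype, an interval that leaves out 0 shows only that 2 libraries differ. Mesenchyme markers summed to 1368 CPM in control and 237 in mutant progenitor-like cells and lens markers to 152 and 0.919 CPM, and their part in these ratios was not tested. A list of 12 glycolysis and hypoxia genes had a median log2 ratio of 0.39 in progenitor-like and 0.47 in neurogenic-like cells, and 12 dissociation genes, of which 9 could be read in the neurogenic class, one of -0.01 in each. For 18 S phase genes the median was 0.22 and 0.39, and for 18 genes of G2 and M phase -0.09 and 0.06. The part of these lists in the ratios of the Notch genes was not tested.

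Other retinal groups held values past 1.5-fold. In amacrine-like cells, where 10.8% of 10867 genes passed, Hes1 was 49.4 CPM in control and 31.8 in mutant (log2 ratio -0.63, with an interval below 0) and Notch2 7.99 and 4.11 CPM (-0.96, -1.99 to 0.03), on 22 and 16 UMIs. Inside the limit there, Notch1 was 48.0 and 32.3 CPM (-0.57, -0.93 to -0.21) and Hes5 76.7 and 54.7 CPM (-0.49, -0.77 to -0.21). Of these 4 genes, Hes1, Hes5 and Notch2 were below their red blood level in both libraries, which was 8.57 and 8.94 CPM for Notch2, and Notch1 was near its own. In amacrine-like cells red blood markers summed to 2361 CPM in control and 178 in mutant, mesenchyme markers to 1233 and 174, and lens markers to 181 and 2.82. Progenitor markers stood at 546 and 473 CPM and neurogenic markers at 928 and 782. The part of these lists in the ratios was not tested. In photoreceptor-like cells Dll1 had a log2 ratio of 0.64 (-0.01 to 1.33). In an unnamed cluster led by Slc1a6 and Nhlh2, where 14.3% of genes passed, Hes1 was 39.7 and 19.7 CPM and Hes5 88.9 and 38.4 CPM, also below the red blood level. This cluster had a mixed profile, with 9 of 9 photoreceptor and 7 of 8 amacrine markers, at 1.97 times the median depth of its samples. Dll4 was 27.6 and 16.5 CPM in an unnamed cluster led by Krt73 and Ptf1a, with an interval of the ratio that included 0. In the Neurod1 cluster Hes5 was 54.1 CPM (42.9 to 67.3) in control and 120.5 (104 to 139) in mutant, yet the share of thinned cells with a UMI was 6.38% and 4.26%, so no order is read from it.

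In RPE-like cells, 4 of 9 genes passed 1.5-fold, against 22.2% of 11110 genes. The count was lower under several alternative settings, at 1 without doublet removal and 1 with Notch genes allowed in the clustering. Notch3 was 1.97-fold higher in mutant, at 31.6 CPM (24.8 to 39.7) against 16.0 (12.0 to 21.0), from 73 and 53 UMIs. The shares of thinned cells with a Notch3 UMI were 2.98% (0.973 to 6.81) and 1.91% (0.830 to 3.74), and the median depth of the class was 10584 UMIs in mutant and 2389 in control. Notch1 was 1.79-fold lower, at 19.5 CPM (14.2 to 26.0) against 34.8 (28.7 to 41.8), and both values were at or below the 31.3 and 35.4 CPM of red blood-like cells in the same library. Dll1 and Dll3 passed on fewer than 30 UMIs each with intervals that included 0, and each changed sign under some alternative settings. Notch2, which had its highest level in this class, had a log2 ratio of -0.21 (-0.35 to -0.08), and Jag1 0.05 (-0.44 to 0.52). Hes1 was 342 CPM (323 to 363) in control and 422 (396 to 449) in mutant, but 21.5% and 21.4% of thinned cells had a UMI and the log2 ratio ran from -0.44 to 0.42 over the alternatives, so no order is read. The summed CPM of other lists differed between the libraries in RPE-like cells, with mesenchyme markers at 2733 in control and 331 in mutant, lens markers at 266 and 36.3, Schwann or glia markers at 115 and 19 and the RPE markers themselves at 29001 and 19038. Mural markers, a list for the class with the highest Notch3, stood at 258 and 257. The median log2 ratio was 0.36 for 12 dissociation genes and 0.48 for 12 glycolysis and hypoxia genes. The part of these lists in the ratios was not tested.

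In endothelial-like cells, 5 of 9 genes passed 1.5-fold and all 5 were lower in mutant, against 13.9% of 10696 genes in either direction. Jag1 was 1.72-fold lower, at 53.3 CPM (43.4 to 64.8) against 91.8 (81.8 to 103). When each cell was given the same weight, its log2 ratio was 0.54 instead of -0.78, and with cells thinned to 1000 UMIs it was -0.77. The share of thinned cells with a Jag1 UMI was 7.88% (5.34 to 11.1) in control and 4.97% (2.17 to 9.56) in mutant, with overlapping intervals. The other 4 genes, Dll1, Dll3, Hes5 and Hes6, all had their highest level in retinal groups. Their log2 ratios were -0.78, -1.52, -0.72 and -0.78. That of Hes5 was 1.90 when only cells holding Xist but no Y-linked UMI were kept. The summed CPM of 9 retinal progenitor markers in endothelial-like cells was 789 in control and 595 in mutant, that of 8 neurogenic markers 332 and 222. Mesenchyme markers stood there at 1169 and 182 CPM and lens markers at 205 and 5.81 CPM, and their part in the result was not tested. Dll4, Notch1 and Hes1, which stood above the red blood level in this class in both libraries, had log2 ratios of -0.09 (-0.44 to 0.26), -0.12 (-0.32 to 0.07) and 0.10 (-0.01 to 0.22).

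In mural-like cells, 2 of 7 genes passed 1.5-fold, against 18.2% of 7476 genes. These were Hes5 (58.8 CPM in control, 112 in mutant) and Hes6 (46.5 and 90.2 CPM), both higher in mutant and below the red blood level in each library. The log2 ratio of Hes6 was -0.05 when only cells holding Y-linked UMIs but no Xist were kept. Notch3 and Jag1, the 2 genes with their highest level in this class, had log2 ratios of -0.14 (-0.38 to 0.09) and 0.31 (0.02 to 0.59). Hes1 was 696 CPM in control and 471 in mutant, a log2 ratio of -0.56 (-0.77 to -0.36) just inside the 1.5-fold limit. The median log2 ratio of 11 dissociation genes was -0.54 in the same cells, and its part in the Hes1 ratio was not tested. In mesenchyme-like cells, 1 of 9 genes passed 1.5-fold, against 10.0% of 11918 genes. This was Dll1, at 1.61 CPM in control and 3.23 in mutant, on 10 and 16 UMIs, with a log2 ratio of 1.01 (-0.22 to 2.31). Both levels were below the 7.50 and 10.1 CPM of red blood-like cells. Hes1 was 206 CPM (195 to 218) in control and 151 (139.9 to 162) in mutant mesenchyme-like cells.

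**Figure D4:**
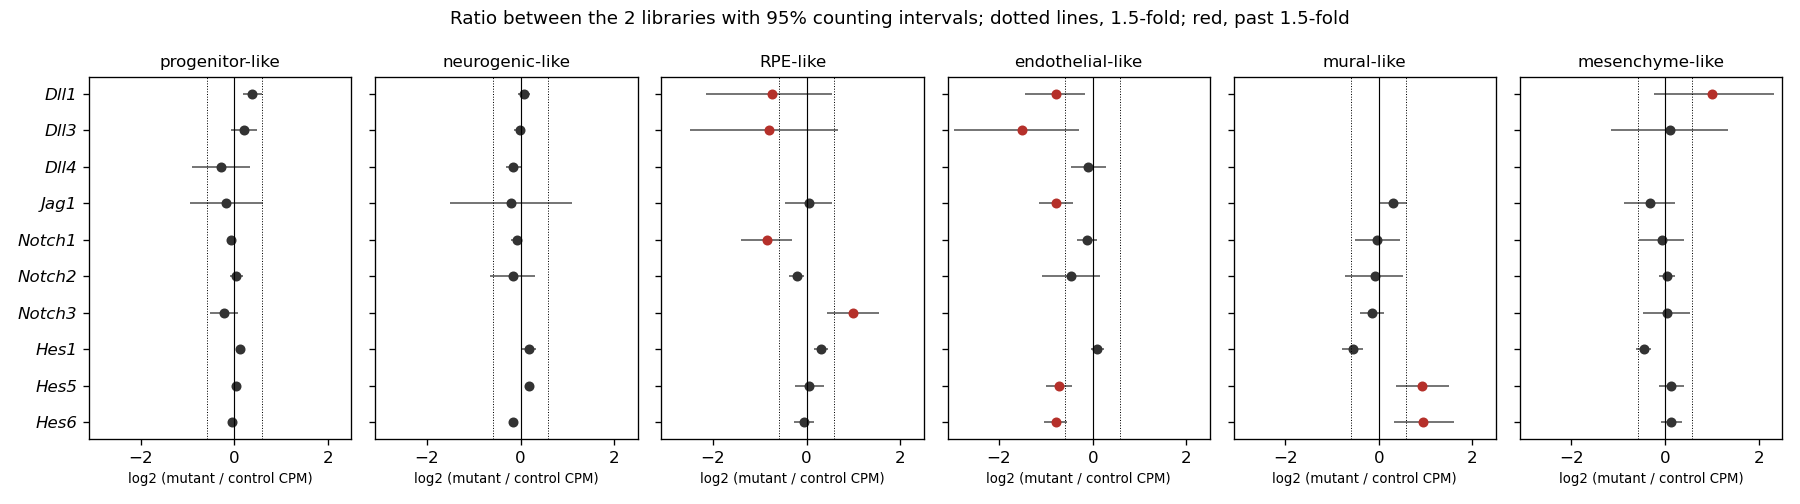
Log2 ratio of mutant over control CPM (x axis) for the 10 Notch genes (y axis) in 6 classes, with exact 95% counting intervals; genes under 20 UMIs over both libraries have no point. Points past 1.5-fold (red) are absent in the progenitor-like and neurogenic-like classes and number 4 in RPE-like, 5 in endothelial-like, 2 in mural-like and 1 in mesenchyme-like cells.

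Other genes of the pathway were compared by the same rule. In progenitor-like cells 1 of 40 was lower in mutant and none higher (9.18% of all genes passed in either direction), and this was Dlk1, a non-canonical ligand, at 5.90 CPM against 11.4. In neurogenic-like cells 3 of 40 were lower and none higher (9.08% of all genes), among them Dlk1, at 7.71 CPM against 13.9, and the target Heyl, at 6.02 CPM against 9.55 with an interval of the ratio that included 0. Red blood-like cells gave 2.23 CPM of Dlk1 in mutant and 10.7 in control, from 2 and 10 UMIs, against 1133 and 903 CPM in mesenchyme-like cells. Mesenchyme markers summed to 189.8 CPM in mutant and 1425 in control neurogenic-like cells, with the progenitor values given above. The retinal levels of Dlk1 in control were thus near the free RNA, and no difference in its expression is read from them. In endothelial-like cells 1 of 38 was higher and 6 lower (13.9%), with Dlk1 at 4.22 CPM (8 UMIs) against 38.7 (128 UMIs), and Neurl1b and Numbl also lower by intervals that included 0. The red blood markers in these cells summed to 3966 CPM in control and 906 in mutant. In RPE-like cells 3 of 38 were higher and 7 lower (22.2%). Dlk1 was higher there, at 88.7 CPM against 57.5, and Kat2b, an acetyltransferase that works with the Notch complex, was lower, at 27.3 CPM against 63.5. Neurl1a and Maml2 were lower as well, and so was Aph1b by an interval that included 0. In mural-like cells 2 of 33 were higher and 8 lower (18.2%), the acetyltransferase Ep300 being 27.5 CPM against 52.7. In mesenchyme-like cells 6 of 39 were higher and 2 lower (10.0%), with Dner at 22.8 CPM against 13.5 and Nrarp at 9.50 against 5.31. Nrarp was 196 CPM in mutant and 202 in control progenitor-like cells. The part of free RNA in these low mesenchyme levels was not tested.

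Patterns most like those of the Notch genes were sought among 11959 other genes over 12 named classes of both libraries, 24 points that share their libraries and are no replicates. The correlations of log2(CPM + 1) describe likeness only. Espn was among the genes most like Hes5 (r = 0.97), and Hes6 was most like Btbd17 (0.94). Dll1 was likewise nearest to Btbd17 (0.89), Dll3 to Mybl1 (0.87) and Olig2 (0.86), and Dll4 to Mfng (0.90) and Pcdh17 (0.76). Notch3 was most like Hspb2 (0.91) and Matn2 (0.90), Jag1 like Cyb5r3 and Myl6 (0.90 each), Notch2 like Acot1 and Phgdh (0.90 each), Hes1 like Tanc1 and Zfp36l1 (0.86 each), and Notch1 like Tubb4b (0.82) and Ube2s (0.81).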

How the data were processed

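Eye cups of postnatal day 0 mice were dissociated with papain after cornea, lens and optic nerve had been removed, and 3 were pooled for each 10x Genomics library. The deposited matrices hold UMI counts per gene and barcode, made by the authors with Cell Ranger on mm10 (version 7.1.0 in the submitters' processing notes, 3.1.0 in the matrix headers), and the authors worked in Seurat 4.1.1. The libraries hold 14305 control and 12222 mutant barcodes, with 79017429 and 76272867 UMIs. The authors' cell annotation was not used here.

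Barcodes under 200 genes or over 15% mitochondrial UMIs were removed (174 and 195), as were 1712 and 1230 likely doublets ranked by Scrublet in scanpy 1.11.5 and removed at a rate of 0.8% per 1000 cells. The threshold that Scrublet sets by itself called 0% (control) and 5.08% (mutant), and was not used. The study's stated upper limit of 2000 UMIs was run as an alternative only, since 80.2% and 92.1% of barcodes lie above it. Cells were clustered in Seurat 5.3.0 (R 4.3.3) with 1993 variable genes, 30 principal components and resolution 1, without Notch pathway or sex-linked genes. A cluster was named, as X-like, when at least 3 and 0.5 of the markers of a list were each found in 10% of its cells and at 2 times the level elsewhere. It stayed unnamed where its 10 leading genes held more markers of another class, where it was shallow against its own sample and none of the 10 was its own, or where another list came within 0.2 in share of markers and fewer than 2 of the 10 were its own. The limits of naming were set after the clusters were seen.

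Counts were summed per class and library and divided by the class total (CPM). Intervals are 95%: exact Poisson for CPM, exact binomial (Clopper-Pearson) for shares of cells thinned to 1000 UMIs, and exact conditional Poisson for log2 ratios. They cover counting error only, and a count of 0 allows up to 3 counts. A gene was compared from 20 UMIs over the groups compared, and called past 1.5-fold. With 1 library per genotype there was no test and no p-value. Levels are not compared between genes, since 3′ UMIs are not per length. All 10 members are named, and of 44 other pathway genes those past 1.5-fold between genotypes with at least 50 UMIs and the 2 highest of each list are nameable. Some of the genes this rule names are not reported here. The members, lists and comparisons were chosen with earlier results of these data known. Scripts were tested on simulated counts, in Python 3.11.15 with numpy 2.4.6, scipy 1.17.1 and pandas 2.3.3, and figures were drawn with matplotlib 3.10.9.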

Additional observations from a re-analysis of the deposited data

Results flagged for a closer look

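For 4 genes the mutant library was higher in some groups of cells and lower in others, in each case past 1.5-fold with a counting interval that left out 0. The difference between the groups was not tested, and each value is a log2 ratio of mutant over control. Dll1 was 1.73 in an unnamed cluster led by Col10a1 and Aldh1a2 and -0.78 in endothelial-like cells. Hes1 was 0.68 in a shallow unnamed cluster with crystallin genes among its leading genes and 0.67 in red blood-like cells, and -0.63 in amacrine-like cells and -1.01 in an unnamed cluster led by Slc1a6 and Nhlh2. Hes5 was 1.16 in the Neurod1 cluster, 0.97 in an unnamed cluster with Acta2 and Myh11 among its leading genes and 0.93 in mural-like cells, and -0.72 in endothelial-like cells and -1.21 in the Slc1a6 cluster. Hes6 was 0.95 in mural-like and -0.78 in endothelial-like cells. The share of all genes that went both ways by this rule is not given. In the single groups named here, the share of all genes past 1.5-fold ran from 10.8% in amacrine-like to 38.1% in red blood-like cells. In red blood-like cells the median log2 ratio of all genes was 0.32. In the crystallin cluster the lens markers summed to 1524 CPM in control and 6.37 in mutant, where 6 of 8 were at 0. They were also higher in control in progenitor-like cells, at 152 and 0.919 CPM. Their part in the Hes1 ratio was not tested. The Slc1a6 cluster held markers of both photoreceptor and amacrine cells. Many of these values rest on levels near the free RNA. Hes1 in amacrine-like cells, Hes1 and Hes5 in the Slc1a6 cluster, and Hes5 and Hes6 in mural-like cells were below the red blood level in both libraries, and so were both Hes5 levels in the Acta2 cluster (38.8 and 76.2 CPM) and the Neurod1 cluster (54.1 and 120.5 CPM). Dll1 in the Col10a1 cluster was 2.94 and 9.74 CPM, from 11 and 20 UMIs, against 7.50 and 10.1 CPM in red blood-like cells. The shares of endothelial-like cells with a Hes5 or Hes6 UMI were near or below those of red blood-like cells, which are themselves the measure of free RNA, although the control level of Hes6 was above it by CPM (198 against 137). No difference in expression is read from those values.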

How the results depend on the processing

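Of 53 log2 ratios between genotypes, 12 passed 1.5-fold, and 7 of these kept their sign under every setting that gave a value. The exceptions, each with the cause not tested, were as follows. Jag1 in endothelial-like cells was 0.54 with equal weight per cell. Hes5 in endothelial-like cells was 1.90 when only cells holding Xist but no Y-linked UMI were kept (Xist-only cells). Hes6 in mural-like cells was -0.05 when only cells holding Y-linked UMIs but no Xist were kept (Y-only cells). Dll1 in RPE-like cells was 0.15 without doublet removal and 0.45 at resolution 2, and Dll3 there was 0.34 with equal weights. Of 20 ratios of neurogenic-like over progenitor-like cells, 16 passed and 15 kept their sign, Hes5 in control being 0.32 under the limit of 2000 UMIs.

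Counts of genes past 1.5-fold moved as well. The share of all genes past it, and the number of Notch genes with enough UMIs, are not given per setting. Fewer ratios had a value under some settings, so these counts are not read as changes in the Notch genes. Under the limit of 2000 UMIs the counts were 2 in progenitor-like (0 in the report), 2 in endothelial-like (5), 0 in mural-like (2), 0 in mesenchyme-like (1) and 1 in RPE-like cells (4), and 2 were higher and 1 lower in the neurogenic class (4 and 4). With cells thinned to 1000 UMIs they were 1 in progenitor-like, 3 in endothelial-like, 1 in mural-like, 2 in mesenchyme-like and 1 in RPE-like cells. In Xist-only cells they were 3 in progenitor-like, 3 in neurogenic-like, 4 in mural-like and 3 in mesenchyme-like cells, and 1 gene was lower in the neurogenic class. In Y-only cells they were 1 in progenitor-like, 1 in neurogenic-like, 4 in mural-like, 3 in mesenchyme-like and 2 in RPE-like cells. In cells over 4000 UMIs they were 3 in endothelial-like and 2 in RPE-like cells. Without doublet removal they were 3 in endothelial-like, 0 in mesenchyme-like and 1 in RPE-like cells. RPE-like cells had 2 at a mitochondrial limit of 5%, 2 at resolution 2 and 1 with Notch genes in the clustering. Mesenchyme-like cells had 2 at resolution 0.5. With no minimum of UMIs, mural-like cells had 4 and mesenchyme-like cells 2. No paired analysis was possible because the labels give no replicate numbers and each genotype has 1 library. Depth limits the genes with few UMIs, such as Notch3 with 9 in each library in neurogenic-like cells.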
